A study of Mus musculus with 16 samples.

Results

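The genes described here are the nuclear genes of the 5 mitochondrial respiratory complexes, measured in the corpus callosum of mice during feeding with cuprizone (CPZ) and after it. A gene was a member when its mouse symbol, found from the accession of its probe, began with Nduf, Uqcr, Cox4, Cox5, Cox6, Cox7, Cox8 or Atp5, or was Sdha, Sdhb, Sdhc or Sdhd. By this rule 91 of the 18737 genes named on the array were members, measured by 115 probes. Of these, 44 genes belonged to complex I, 4 to complex II, 8 to complex III, 18 to complex IV and 17 to complex V. Of the 44 complex I genes, 7 were Ndufaf assembly factors, which help to build the complex and are not part of it, so that 84 members were subunits. Ndufa4, first assigned to complex I and now regarded as a subunit of complex IV, was counted by its symbol.

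All mice were male, and the study used wild-type C57BL/6 mice without a transgene or deletion. The untreated group (3 arrays) had standard chow. The CPZ groups had 2 weeks (3 arrays) or 4 weeks (4 arrays) of CPZ, with the compound mixed into powdered chow at 0.2 to 0.4% according to the labels. The regular-diet group (6 arrays) had 4 weeks of CPZ and then chow without it. The study killed these mice at 2 times after CPZ was withdrawn, which the labels do not separate, so that the group mixes both. The tissue was punched out of the brain and total RNA was hybridised to 1-colour arrays. The labels number replicates without saying that each is 1 mouse, so p-values measure only the spread between these samples.

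The respiratory complexes sit in the inner mitochondrial membrane. Complexes I and II pass electrons from NADH and succinate to ubiquinone, complex III passes them on to cytochrome c, and complex IV, cytochrome c oxidase, hands them to oxygen. Complexes I, III and IV pump protons while doing so, and complex V, the ATP synthase, makes ATP from the proton gradient. Most subunits are encoded in the nucleus. The catalytic cores of complexes I, III and IV and part of complex V also hold subunits encoded by mitochondrial DNA. Those subunits were not examined here, since the list kept for them held 0 genes. CPZ is a copper chelator that kills oligodendrocytes, the cells that make myelin, and complex IV needs copper for its activity. After CPZ is withdrawn, new oligodendrocytes form and remyelinate the corpus callosum.

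Values are the deposited log2 values, in which 0 is the median of the 3 untreated arrays for that probe, so a value of 1 is a doubling. Of the 91 members, 88 (112 probes) were well above background and were tested, and all 88 were so on each of the 16 arrays. The members left out were Cox4i2, the hypoxia-responsive isoform of subunit 4, detected on 2 arrays, and Cox7b2 and Cox8c, isoforms best known from testis, detected on 0 arrays. A gene was counted by its brightest probe. Of the 19 members with more than 1 tested probe, the probes gave the same sign in 13 to 17, depending on the comparison. They disagreed most for Uqcrc1, a core protein of complex III, whose probes gave -0.53 and 0.09 for 2 weeks against untreated.

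Several arrays stood apart before any comparison was made. The share of probes well above background was 57.4% on untreated array 1, 60.3% on 4-week array 2 and 59.3% on 4-week array 3, against 64.6 to 72.2% on the other 13 arrays. Regular-diet arrays 1 and 2 had microglial marker medians of 4.18 and 4.55, against 1.60 to 1.85 on the other 4 arrays of that group. The labels could be checked against myelin genes: the median of 9 markers lay between -0.69 and 0.40 on untreated arrays, between -4.80 and -1.63 on all 7 CPZ arrays, between -3.50 and -2.92 on regular-diet arrays 1 to 3 and between -0.13 and 0.52 on regular-diet arrays 4 to 6. The scanner files are recorded under samples that conflict with the columns of the deposited value table. Each column matched 1 scanner file with a correlation of at least 0.99997, but for 13 of 16 that file is recorded under another group. The columns were followed here, and beside each comparison the value under the recorded assignment is given where it turns the direction.

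The promoters of the members hold motifs known from nuclear genes of mitochondrial proteins. RefSeq promoters on build GRCm38.p6, from 250 bases before to 50 bases after the transcription start, were found for 75 members in 80 windows. Both strands were searched for 4 motifs, and no matches of different motifs overlapped in these windows. GCGCANGCG, the core of the motif of NRF1, was present in 28.8% of member windows and in 6.25% of all 32851 windows. AAGATGGCG, known as a YY1 motif, was present in 8.75% of member windows against 1.40% of all windows. CCGGAAGT, a motif of ETS factors such as GABPA, was present in 6.25% against 3.89%, and CAAGGTCA, a motif of the oestrogen-related receptors, in 5% against 1.56%. Any of the 4 was present in 40% of member windows and in 12.1% of all windows. By complex, 15 of 39 genes of complex I, 2 of 3 of complex II, 3 of 5 of complex III, 2 of 13 of complex IV and 9 of 15 of complex V had a motif. A match describes the letters in a window and not binding of the factor.

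The promoters of 5 members on which the results below turn are shown, each from 250 bases before to 30 bases after the start, 5′ to 3′ on the strand of the gene, with motif matches on either strand in capitals. Uqcr11 and Ndufa5 are among the genes that lay lowest on regular diet relative to 4 weeks of CPZ, and both have a GCGCANGCG match. Of the other 3 genes with the largest such differences without overlap, Cox5b and Ndufa13 have windows with none of the 4 motifs, and Uqcrq had no window. Atp5e, Cox7a2l and Cox8b differed from most other members in their values by array, and none of the 4 motifs is in their windows.
Uqcr11 (chr10:80406792-80407071, minus strand): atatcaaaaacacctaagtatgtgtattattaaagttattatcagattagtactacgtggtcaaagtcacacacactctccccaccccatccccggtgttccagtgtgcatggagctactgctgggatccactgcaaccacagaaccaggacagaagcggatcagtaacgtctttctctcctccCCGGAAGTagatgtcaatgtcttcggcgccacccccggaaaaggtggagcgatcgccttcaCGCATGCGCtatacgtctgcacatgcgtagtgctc
Ndufa5 (chr6:24527497-24527776, minus strand): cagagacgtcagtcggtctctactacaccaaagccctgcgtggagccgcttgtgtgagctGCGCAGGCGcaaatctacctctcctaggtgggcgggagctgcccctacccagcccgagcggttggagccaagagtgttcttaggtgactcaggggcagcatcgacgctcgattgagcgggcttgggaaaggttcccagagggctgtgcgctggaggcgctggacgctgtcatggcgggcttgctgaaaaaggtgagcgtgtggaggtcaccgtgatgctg
Atp5e (chr2:174464072-174464351, minus strand): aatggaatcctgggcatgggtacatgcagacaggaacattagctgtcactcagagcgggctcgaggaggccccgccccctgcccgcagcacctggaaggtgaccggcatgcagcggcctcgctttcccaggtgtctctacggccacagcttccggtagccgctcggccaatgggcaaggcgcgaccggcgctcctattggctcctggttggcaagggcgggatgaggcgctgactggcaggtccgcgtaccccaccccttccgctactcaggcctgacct
Cox7a2l (chr17:83514304-83514583, minus strand): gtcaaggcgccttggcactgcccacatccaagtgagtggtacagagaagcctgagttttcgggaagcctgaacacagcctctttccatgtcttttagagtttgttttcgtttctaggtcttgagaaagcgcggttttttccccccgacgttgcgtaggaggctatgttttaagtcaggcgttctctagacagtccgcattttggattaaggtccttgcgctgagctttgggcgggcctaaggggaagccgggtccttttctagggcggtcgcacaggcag
Cox8b (chr7:140900417-140900696, minus strand): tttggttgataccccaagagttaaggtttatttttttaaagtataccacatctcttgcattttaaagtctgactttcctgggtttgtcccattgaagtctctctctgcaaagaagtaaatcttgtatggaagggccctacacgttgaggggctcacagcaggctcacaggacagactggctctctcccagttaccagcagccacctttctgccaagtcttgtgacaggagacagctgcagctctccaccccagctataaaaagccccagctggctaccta

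The members moved together from array to array, and the spread within a group was as wide as the differences between groups. The median of the 88 members was 0.47, -0.31 and 0.00 on the 3 untreated arrays. It was 0.02, 0.15 and 0.06 after 2 weeks of CPZ, and -0.06, 0.63, 0.34 and 0.20 after 4 weeks. On regular diet the lowest array had a median of -0.39 and the highest 0.04. The untreated and the 4-week arrays were thus widely spread, the 2-week arrays lay close together, and all groups overlapped. The comparisons below share groups, so they are not independent of each other. As group means over arrays, the medians were 0.06 ± 0.39 (SD, n = 3) untreated, 0.08 ± 0.07 (SD, n = 3) at 2 weeks, 0.28 ± 0.29 (SD, n = 4) at 4 weeks and -0.13 ± 0.18 (SD, n = 6) on regular diet.

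**Figure D1:**
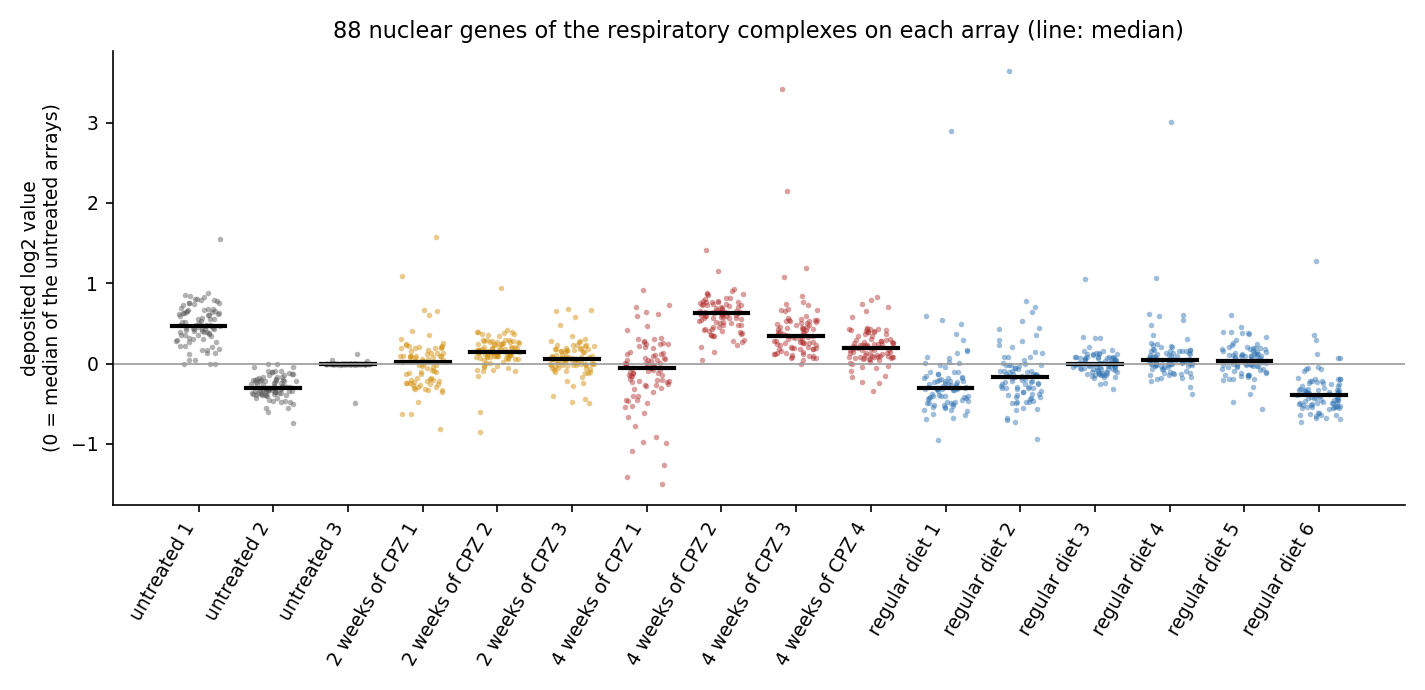
Deposited log2 values of the 88 tested members (points) on each of the 16 arrays, with the median as a line; 0 is the median of the untreated arrays. The medians run from -0.39 on regular-diet array 6 to 0.63 on 4-week array 2, and untreated array 1 at 0.47 lies above every array but 4-week array 2.

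The untreated arrays show how uniform this shift was. All 88 members were higher on untreated array 1 than on untreated array 2, by a median of 0.80, while 53.7% of all tested genes were higher there, by a median of 0.06. Untreated array 3 was the middle array for most members, so that 83 of 88 have the value 0 on it, which follows from the way the baseline was set. At 4 weeks, 83 of 88 members were higher on array 2 than on array 1, by a median of 0.69, against 50.2% of all genes. Every member was above 0 on 4-week arrays 2 and 3, whereas 36 of 88 were above 0 on 4-week array 1. The 4 arrays with the highest member medians (4-week array 2, untreated array 1, and 4-week arrays 3 and 4) were also the 4 with the fewest probes well above background, and the part of detection in the result was not tested.

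**Figure D2:**
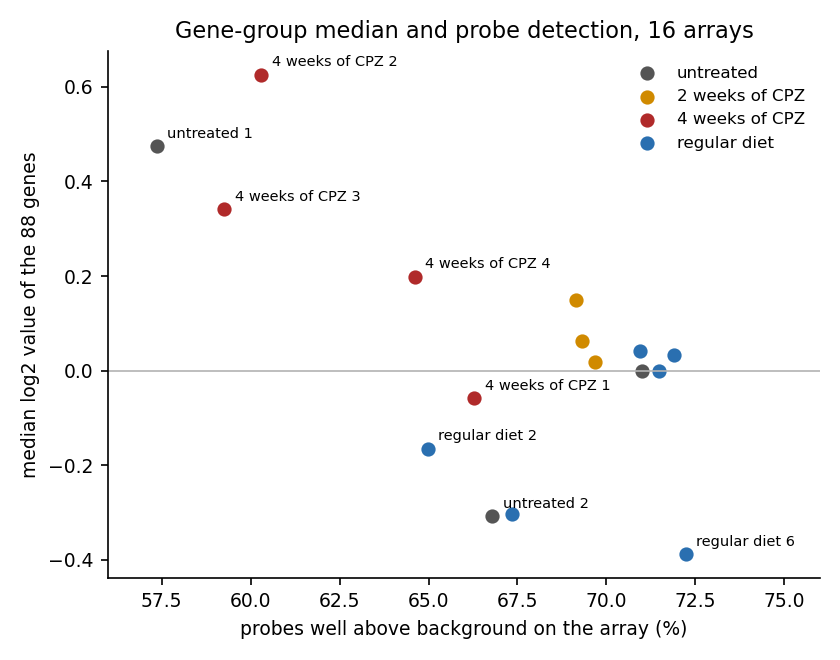
Median log2 value of the 88 members on each array (vertical axis) against the share of probes well above background on the same array in percent (horizontal axis), coloured by group. The 4 arrays with the highest medians, from 0.20 to 0.63, lie at the left, between 57.4 and 64.6%.

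After 2 weeks of CPZ, which the study calls early demyelination, no member differed from untreated by the criteria of the study. These ask for an adjusted p under 0.05 together with a change of 2-fold or more. They were applied here to p-values from limma, whereas the study took its p-values from Tukey's test. Among all 20401 genes, 0.211% passed, where a probe without a symbol was counted as a gene under its accession. The median log2 fold change of the 88 members was -0.01, against 0.05 over all genes, and 41 were higher and 47 lower. The median was -0.01 for complex I, -0.09 for complex II, 0.01 for complex III, -0.06 for complex IV and 0.07 for complex V, so no complex stood out. The median standard error of a member was 0.27, and for Cox4i1, the common isoform of subunit 4 of complex IV, the difference of 0.00 had a 95% interval from -0.63 to 0.63, which allows a change of that size either way. At an unadjusted p under 0.05, 1 member (Cox6a2, higher) was found, against 9.56% of all genes. This count was 5 without untreated array 1 (7.56% of all genes). It was 0 without untreated array 2 (7.61%), without 2-week array 2 (10.2%) and without 2-week array 3 (7.12%). The arrays of the groups did not overlap for 1 member that was higher, Ndufaf4, and for 0 that were lower, while 8.21% of all genes were higher and 8.6% lower without overlap. Ndufaf4, an assembly factor of complex I, was 0.05, -0.13 and 0.00 untreated and 0.25, 0.28 and 0.10 at 2 weeks, a difference of 0.24 (SE 0.15, limma adjusted p = 0.81). The median over members was -0.28 with slide as a fixed block, -0.10 with slide as a random block, 0.11 under quantile normalization, 0.21 without untreated array 1 and -0.17 without untreated array 2, so it had no settled sign.

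The study calls 4 weeks of CPZ full demyelination. On these arrays 8 of 9 myelin markers were higher at 4 than at 2 weeks (median 0.93), 0 of them with an unadjusted p under 0.05. After 4 weeks of CPZ, members were on the whole slightly higher than untreated, and again 0 passed the criteria, against 0.181% of all genes. The median log2 fold change was 0.20, where all genes had a median of -0.04, and 79 of 88 members were higher. All 8 genes of complex III, all 15 of complex IV and all 17 of complex V had fitted values above 0, with medians of 0.26, 0.21 and 0.20. For complex I, 37 of 44 were higher (median 0.19), and for complex II, 2 of 4 (median 0.10). The range of values within a group was larger than the fitted difference for 97.7% of members and 94.6% of all genes. An unadjusted p under 0.05 was found for 3 members, all higher, where the share of all genes was 9.99%. This count was 22 without untreated array 1 (17.8% of all genes), 1 without untreated array 2 (6.02%) and 9 without the 3 arrays of fewest detected probes (20.6%). Without overlap, 4 members were higher (Cox6a2, Atp5e, Ndufaf4 and Ndufaf7) and 0 lower, against 5.3% and 4.43% of all genes. These are values of the brightest probe, and the fitted values of the probes ran from -0.085 to 0.15 for the 2 of Ndufaf7 and from 0.01 to 0.44 for the 3 of Ndufaf4. The size of this shift depended on the untreated arrays, since the median was 0.41 without array 1 and 0.03 without array 2, and it was 0.11 under quantile normalization and 0.09 without 4-week array 2. When each array was assigned to the sample recorded for its file, the median turned to -0.30.

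Cox6a2, the heart and skeletal muscle isoform of subunit 6a, had the largest difference of the 88 members between 4 weeks and untreated. It was 0.17, -0.73 and 0.00 on untreated arrays, 0.05, 0.94 and 0.68 at 2 weeks and 0.92, 0.74, 1.08 and 0.71 at 4 weeks. The 4-week arrays lay close together and above all untreated arrays, with a difference of 1.05 (SE 0.28, 95% interval 0.41 to 1.68, limma adjusted p = 0.174), while 2 weeks overlapped with untreated. On regular diet, arrays 1 and 2 reached 2.89 and 3.64 and the other 4 lay between -0.06 and 0.38, and the difference from untreated was 1.37 (SE 0.72, limma adjusted p = 0.511). Arrays 1 and 2 are the 2 arrays with the high microglial marker medians of 4.18 and 4.55, and whether the 2 signals are linked was not tested. Cox6a1, the ubiquitous isoform of the same subunit, did not have these high values: it was between -0.31 and 0.00 on all 6 regular-diet arrays, and 0.10 (SE 0.26, limma adjusted p = 0.93) higher at 4 weeks than untreated.

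Atp5e encodes the small epsilon subunit in the catalytic head of the ATP synthase. Its values were 0.64, -0.09 and 0.00 untreated, 0.65, 0.29 and 0.59 at 2 weeks and 0.71, 1.16, 0.84 and 0.83 at 4 weeks. On regular diet the lowest was 0.13, the median 0.59 and the highest 0.78. All 4-week arrays thus lay above all untreated arrays, though the highest untreated array came close to the lowest of them, and the difference was 0.70 (SE 0.22, limma adjusted p = 0.269). Other subunits in and around the catalytic head had smaller fitted values. At 4 weeks against untreated, Atp5a1 (alpha subunit) was 0.06 (SE 0.24) higher, Atp5b (beta) 0.20 (SE 0.22; its 3 probes ran from -0.30 to 0.24), Atp5c1 (gamma) 0.17 (SE 0.22), and Atp5o, part of the stalk that holds the head, 0.31 (SE 0.22), all with limma adjusted p of at least 0.746.

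**Figure D3:**
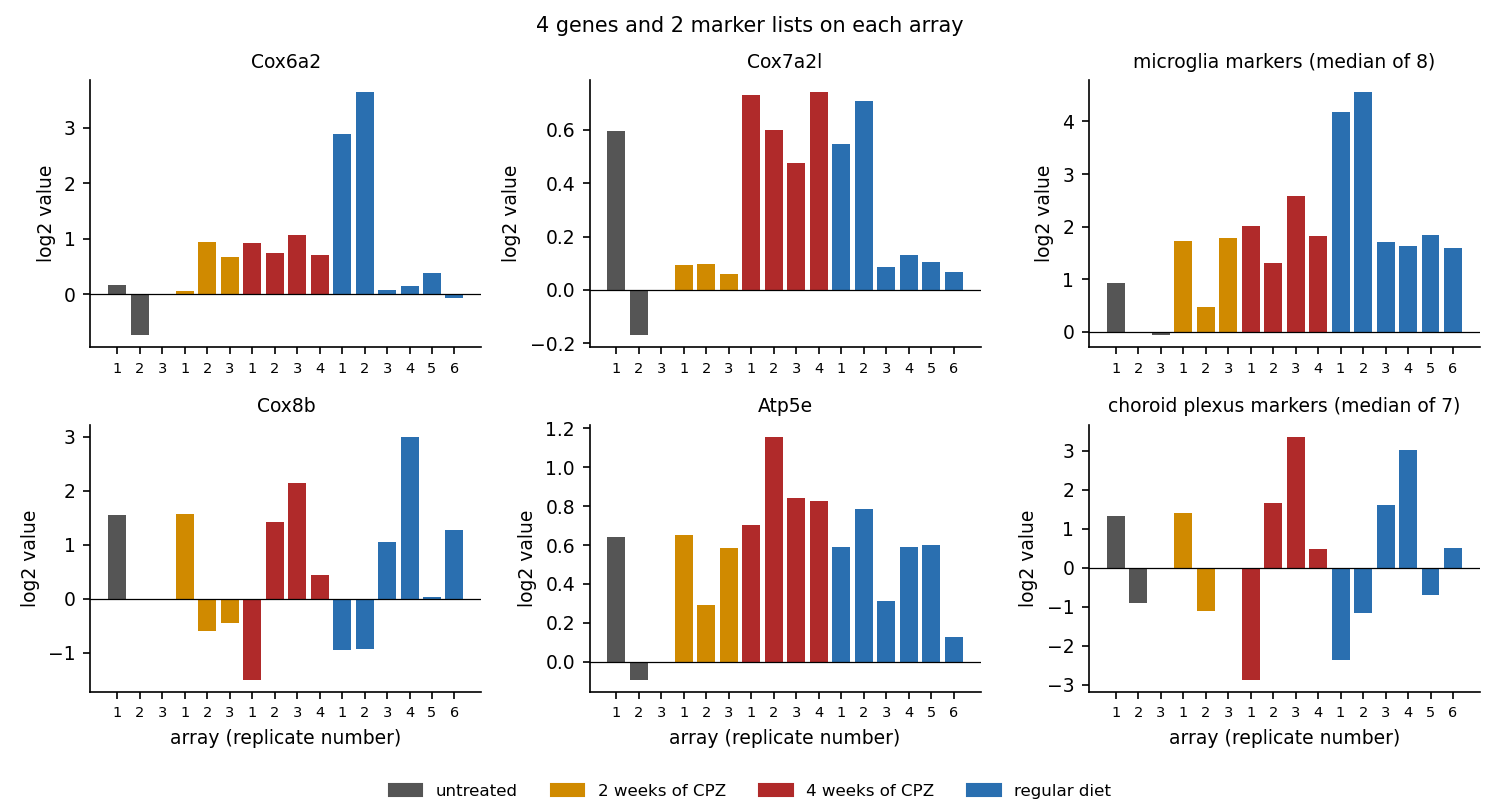
Deposited log2 values of Cox6a2, Cox8b, Cox7a2l and Atp5e on each array, and the medians of 8 microglial and 7 choroid plexus markers (bars from 0, the median of the untreated arrays; vertical scales differ between panels). Cox6a2 and the microglial markers are both highest on regular-diet arrays 1 and 2, and Cox8b and the choroid plexus markers are both high on 4-week array 3 (2.14 and 3.36) and regular-diet array 4 (3.00 and 3.02).

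From 2 to 4 weeks of CPZ the members were higher by a median of 0.21, against -0.02 over all genes, and 79 of 88 were higher, but this direction did not hold under quantile normalization (-0.01) or without the 3 arrays of fewest detected probes (-0.02), and it was 0.09 without 4-week array 2, 0.33 without 4-week array 1 and 0.44 with slide as a fixed block. The sample recorded for each file gave -0.09. No member passed the criteria, which 0.0147% of all genes did, and at an unadjusted p under 0.05 there was 1 member, Cox7a2l, against 11.3% of all genes. This count was 12 with slide as a fixed block (25.3% of all genes) and 5 without untreated array 1 (16.5%). It was between 0 and 2 without any other single array, where the shares of all genes ran from 6.73 to 20.1%. Without overlap, 10 members were higher: the complex III genes Uqcrq, Uqcrh, Uqcr10 and Uqcr11, the complex I genes Ndufs5, Ndufb7 and Ndufb10, and Cox5b, Cox7a2l and Atp5e. No member was lower without overlap, where the shares of all genes were 5.79% higher and 9.42% lower. Complex III therefore gave 4 of its 8 tested genes to this set by their brightest probes, although their p-values did not pass (lowest limma adjusted p = 0.488). For Uqcrh this depended on the probe. Its other probe overlapped, at 0.04, 0.22 and -0.02 at 2 weeks and -0.19, 0.61, 0.25 and 0.21 at 4 weeks. The fitted difference was 0.14 by that probe and 0.33 by the brightest.

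Cox7a2l resembles a subunit of complex IV and is known for joining complexes III and IV into supercomplexes. Whether it does so in the C57BL/6 mice of this study was not tested. Cox7a2l was 0.09, 0.10 and 0.06 at 2 weeks and 0.73, 0.60, 0.48 and 0.74 at 4 weeks. The 2 groups were thus far apart relative to their spread. The untreated arrays, at 0.59, -0.17 and 0.00, covered nearly the whole interval between them. The difference between 4 and 2 weeks was 0.55 (SE 0.20, 95% interval 0.10 to 1.01, limma adjusted p = 0.447). On regular diet arrays 1 and 2 stayed at 0.55 and 0.71, and arrays 3 to 6 lay between 0.07 and 0.13, close to the 2-week values.

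The 4-week arrays also differed among themselves, with array 1 as the most heterogeneous. Its middle 50% of members spanned 0.39, the widest of the 16 arrays. Its lowest members were Cox8b at -1.50, Ndufs8 at -1.41, Ndufa10 at -1.26, Sdha at -1.08 and Sdhb at -0.98. Ndufs8 carries iron-sulphur clusters in complex I, and Sdha and Sdhb are the catalytic flavin and iron-sulphur subunits of succinate dehydrogenase. The highest members on the same array were Cox6a2 at 0.92, Cox7a2l at 0.73, Atp5e at 0.71 and Uqcrq at 0.65. On 4-week arrays 2 to 4 Sdha was 0.34, 0.10 and -0.17 and Sdhb 0.40, 0.46 and -0.09. Values this low were thus on array 1 only, by the brightest probe of each gene. For Sdha the low value depended on the probe, since its other probe was -0.35 on array 1.

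On regular diet compared with untreated, members were on the whole slightly lower, with a median of -0.20 against -0.01 over all genes, and 75 of 88 were lower. None passed the criteria, which 0.864% of all 20606 genes tested did. Medians were -0.21 for complex I, -0.12 for complex II, -0.19 for complex III, -0.16 for complex IV and -0.17 for complex V. The range of values within a group exceeded the fitted difference for all 88 members and for 97.6% of all genes. An unadjusted p under 0.05 was found for 1 member, Ndufb9 in the membrane arm of complex I, where 10.5% of all genes had such a p. Its difference was -0.46 (SE 0.21, limma adjusted p = 0.461). Ndufb9 was 0.70, -0.21 and 0.00 untreated and from -0.57 to -0.003 on regular diet. Only untreated array 1 thus lay well above the regular-diet arrays. The count of members with such a p was 11 without untreated array 2 (11.2% of all genes). It was between 0 and 2 without any other single array, where the shares of all genes ran from 7.31 to 11.9%. No member was separated from untreated in either direction, against 5.08% of all genes higher and 3.41% lower. The median was 0.02 without untreated array 1, -0.37 without untreated array 2 and -0.07 under quantile normalization.

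The comparison with the largest member median was between regular diet and 4 weeks of CPZ, in which nearly all members were lower after CPZ was withdrawn. The fitted value was below 0 for 87 of 88 members, with a median of -0.38 against 0.03 over all genes, and Cox6a2 at 0.32 was the exception. No member passed the criteria, which 1 gene in all did (0.00485%), and the lowest limma adjusted p of a member was 0.0961. An unadjusted p under 0.05 was found for 39 of 88 members, all lower, which is 44.3% against 26.6% of all genes. Without overlap, 12 members were lower and 0 higher, where the shares of all genes were 3.47% lower and 4.98% higher. The 12 were Ndufa5, Ndufa13, Ndufb7, Ndufb10, Ndufs3, Ndufs5 and the assembly factor Ndufaf5 of complex I, Uqcrq, Uqcr10 and Uqcr11 of complex III, Cox5b of complex IV and Atp5o of complex V. Without the 3 arrays of fewest detected probes the median was -0.19, with 22 of 88 members higher, and 10 members had an unadjusted p under 0.05 (26.1% of all genes), and under quantile normalization these were -0.16 and 9 (25.2% of all genes). Tukey's test, from the study's methods, gave 10 members with a p under 0.05 not adjusted over genes, against 9.13% of all genes, and limma after normexp background correction gave 15, against 19.3%. Single 4-week arrays also moved that count, to 10 without array 2, 23 without array 3 and 67 without array 1, where the shares of all genes were 14.8%, 24.1% and 33.6%. It was 26 and 23 without regular-diet arrays 1 and 6 (23.1% and 21.6% of all genes), while the median stayed between -0.51 and -0.27 whichever array was left out. The sample recorded for each file turned the median to 0.20.

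**Figure D4:**
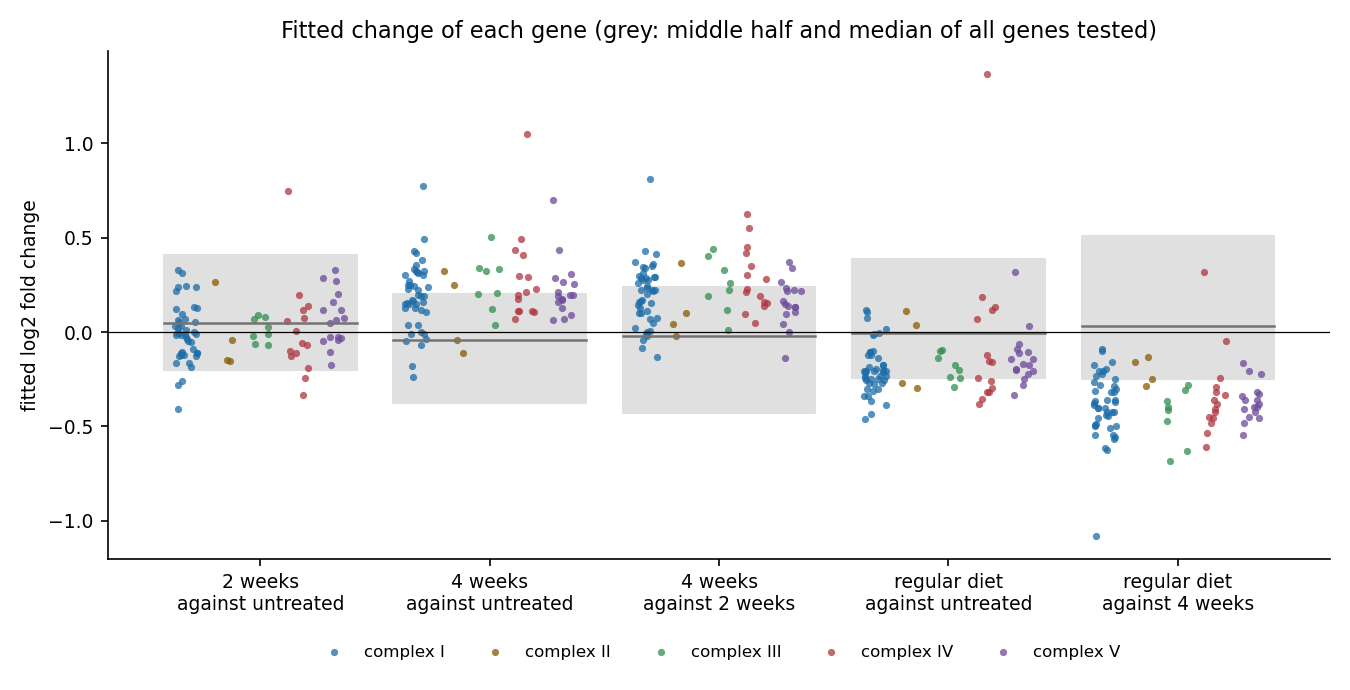
Fitted log2 fold change of each of the 88 members (points, coloured by complex) in the 5 comparisons, over the middle 50% (grey box) and median (grey line) of all genes tested. For regular diet against 4 weeks the points centre on -0.38 while all genes have a median of 0.03, and for 2 weeks against untreated they centre on -0.01.

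By complex the contrast was alike for I, III, IV and V, with medians of -0.38, -0.41, -0.38 and -0.38, and smaller for complex II at -0.20. These differences between complexes were not tested. An unadjusted p under 0.05 was found for 19 of 44 genes of complex I, 0 of 4 of complex II, 5 of 8 of complex III, 6 of 15 of complex IV and 9 of 17 of complex V. The share of all genes was 26.6%. The count over all 88 members, 39, was 9 under quantile normalization (25.2% of all genes). It was 10 without the 3 arrays of fewest detected probes (26.1%). On the arrays, by the brightest probe of each gene, complex II had the lowest value of any complex on 4-week array 1 (-0.60), beside 0.44, 0.28 and 0.04 on arrays 2 to 4. Its group mean at 4 weeks was 0.04 ± 0.46 (SD, n = 4), while that of complex III was 0.34 ± 0.22 (SD, n = 4).

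**Figure D5:**
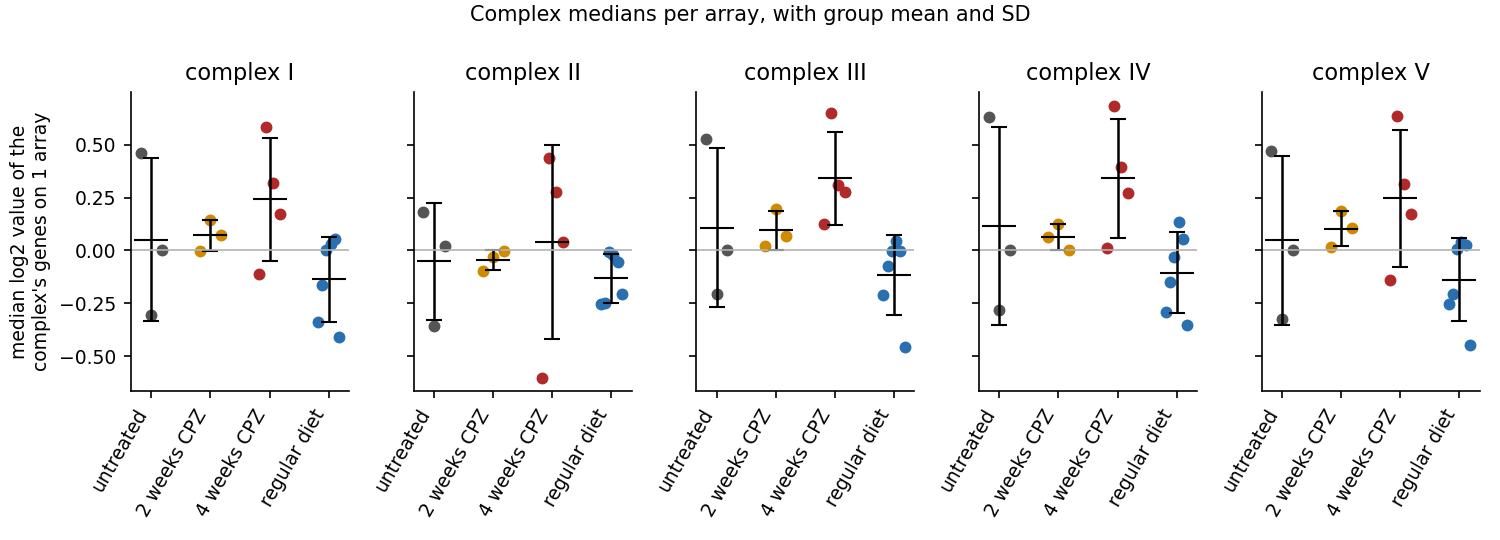
Median log2 value of the genes of each complex on each array (points), with the group mean and SD (bars), for the 4 groups. In each complex the 4-week mean is the highest of the 4 groups and the regular-diet mean the lowest, from 0.34 to -0.12 in complex III, where the SD bars of these 2 groups do not meet, while they overlap in the other 4 complexes.

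Among single genes, Uqcr11, a small subunit of complex III whose promoter is shown above, gave the lowest p. It was 0.47, 0.86, 0.44 and 0.43 at 4 weeks, and on regular diet the lowest value was -0.36, the median -0.03 and the highest 0.12. The difference was -0.63 (SE 0.18, 95% interval -1.02 to -0.24, limma adjusted p = 0.0961). The 2 groups were apart, but untreated array 1 at 0.83 lay above all 4-week arrays except array 2, and the other untreated arrays were -0.19 and 0.00.

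Uqcrq, another small subunit of complex III, had the largest difference of the 12, at -0.68 (SE 0.20, limma adjusted p = 0.0989). Its values were 0.65, 0.85, 0.73 and 0.58 at 4 weeks, against a lowest of -0.56, a median of 0.05 and a highest of 0.43 on regular diet. At 2 weeks it was 0.20, 0.28 and 0.31, within the range of the regular-diet arrays. Thus Uqcrq was higher at 4 weeks than on every array of 2 weeks and of regular diet, and untreated array 1, at 0.79, again lay among the 4-week arrays.

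Cox5b, a zinc-binding subunit of complex IV, was 0.24, 0.74, 0.38 and 0.41 at 4 weeks and below 0 on all 6 regular-diet arrays, from -0.37 to -0.02 with a median of -0.14. The difference was -0.61 (SE 0.18, limma adjusted p = 0.0966). Its partner at the matrix side of the enzyme, Cox5a, was -0.53 (SE 0.20, limma adjusted p = 0.136), and Cox4i1 was -0.45 (SE 0.18, limma adjusted p = 0.158). Of the other fixed complex IV subunits, Cox6c was -0.41 (SE 0.20) and Cox7c -0.33 (SE 0.21), and these 2 had an unadjusted p over 0.05.

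In complex I, Ndufa5, a subunit of the arm that reaches into the matrix, was 0.31, 0.73, 0.19 and 0.36 at 4 weeks. On regular diet it had a lowest value of -0.63, a median of -0.18 and a highest of 0.12, and the difference was -0.62 (SE 0.20, limma adjusted p = 0.11). Ndufa13, also known as GRIM-19, gave -0.56 (SE 0.19, limma adjusted p = 0.119), with 4-week values of 0.24, 0.93, 0.65 and 0.41 above a regular-diet maximum of 0.15. Both genes therefore separated the groups, though the nearest arrays of each lay close together. The lowest 4-week and highest regular-diet values were 0.19 and 0.12 for Ndufa5 and 0.24 and 0.15 for Ndufa13.

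The core subunits of complex I, most of which hold the flavin or iron-sulphur clusters, varied among themselves. Ndufv1, which binds NADH, was -0.46 (SE 0.17), Ndufv2 was -0.50 (SE 0.19) and Ndufs3 was -0.42 (SE 0.15) on regular diet against 4 weeks, with limma adjusted p from 0.13 to 0.141. Ndufs7 was -0.37 (SE 0.18), Ndufs1 -0.28 (SE 0.15) and Ndufs8 -0.10 (SE 0.31), with limma adjusted p from 0.228 to 0.856. Ndufs8 had a wide error and 4-week values of -1.41, 0.58, 0.55 and -0.01.

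Among the 4 genes of succinate dehydrogenase, those of the catalytic part and of the membrane anchor are given by array, and the difference between these pairs was not tested. Sdha was -0.48, -0.03 and -0.22 at 2 weeks and Sdhb -0.36, -0.03 and -0.08, and the anchor genes were 0.23, -0.09 and 0.11 (Sdhc) and 0.16, 0.21 and 0.07 (Sdhd). On 4-week arrays 1 to 4 Sdhc was 0.071, 0.69, 0.67 and 0.37 and Sdhd -0.22, 0.48, 0.081 and 0.17, so that on array 3 Sdhb, at 0.46, lay above Sdhd. On regular diet Sdha ran from -0.68 to -0.04 and Sdhb from -0.54 to -0.05, while Sdhc was above 0 on all 6 arrays, from 0.07 to 0.30, and Sdhd lay on both sides of 0, from -0.19 to 0.14. Against untreated these differences were small relative to their error: -0.27 (SE 0.26) for Sdha, -0.29 (SE 0.27) for Sdhb, 0.04 (SE 0.17) for Sdhc and 0.11 (SE 0.17) for Sdhd, with limma adjusted p of at least 0.653. In complex III, the core proteins Uqcrc1 and Uqcrc2 and the Rieske iron-sulphur protein Uqcrfs1 were -0.31 (SE 0.15), -0.37 (SE 0.17) and -0.28 (SE 0.22) on regular diet against 4 weeks, with limma adjusted p from 0.19 to 0.434.

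Isoform pairs were compared by their patterns, since the levels of different probes cannot be set against each other. The ubiquitous isoforms followed the rest of the members: Cox6a1, Cox7a2 and Cox8a were -0.48 (SE 0.18), -0.45 (SE 0.19) and -0.43 (SE 0.19) on regular diet against 4 weeks, with limma adjusted p from 0.137 to 0.188. The muscle isoforms gave 0.32 (SE 0.65) for Cox6a2, -0.29 (SE 0.31) for Cox7a1 and -0.05 (SE 0.83) for Cox8b, with limma adjusted p from 0.561 to 0.978, and the differences between isoforms were not tested. Cox8b was 1.55, 0.00 and -0.02 untreated, 1.57, -0.60 and -0.44 at 2 weeks, -1.50, 1.42, 2.14 and 0.43 at 4 weeks and -0.95 to 3.00 on regular diet, with a median of 0.54. Each group thus held arrays well above and at or below 0, and the 4 groups overlapped. The median of 7 choroid plexus markers was 1.32, -0.91 and 0.00 untreated, 1.40, -1.1 and 0.00 at 2 weeks, and -2.87, 1.65, 3.36 and 0.49 at 4 weeks, so that the arrays highest and lowest in Cox8b at 4 weeks were also those of the markers. Of these 7 markers 5 were well above background on all 16 arrays, and Otx2 and Aqp1 on 13 and 14. The sum of their linear values ran from 2.41 to 13.1 untreated, 2.39 to 14.7 at 2 weeks, 1.04 to 53.1 at 4 weeks and 1.11 to 42.7 on regular diet, and the part of choroid plexus in the Cox8b values was not tested.

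Cox7a1, the muscle isoform of subunit 7a, was highest on the same array as Cox8b in each of the 4 groups, at 0.78 on untreated array 1, 1.1 on 2-week array 1, 1.19 on 4-week array 3 and 1.06 on regular-diet array 4. Cox6b2, an isoform best known from testis, was 0.40, -0.85 and -0.41 on the 2-week arrays and between 0.17 and 0.66 at 4 weeks, a difference of 0.62 (SE 0.31, limma adjusted p = 0.476), and Cox6b1 was 0.14 (SE 0.30) in the same comparison. The genes Atp5g1, Atp5g2 and Atp5g3 encode the same mature ring subunit of the ATP synthase. On regular diet against 4 weeks they were -0.33 (SE 0.23), -0.16 (SE 0.21) and -0.42 (SE 0.19), with limma adjusted p of 0.374, 0.631 and 0.192. The sign for Atp5g2 depended on the probe, since its other probe gave 0.085. By its brightest probe Atp5g2 was 0.37 and 0.45 on regular-diet arrays 1 and 2, where Atp5g3 was -0.48 and -0.49. Ndufa4, the subunit shared by name with complex I, was -0.62 (SE 0.22, limma adjusted p = 0.123).

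Genes that serve the same pathway were counted from fixed lists, and in each of the 5 comparisons 0 genes of each list passed the criteria. On regular diet against 4 weeks, 14 of 15 Krebs cycle genes were lower (median -0.30, 6 with an unadjusted p under 0.05), as were 12 of 13 genes of electron carriers and their synthesis (median -0.25, 2 with such a p). Of 37 assembly factors and copper delivery genes outside the members, 30 were lower (median -0.21), and 10 had an unadjusted p under 0.05, of which 9 were lower. The share of all genes with such a p was 26.6%, so these factors were near it and the carriers below it. Of 15 regulators of mitochondrial content, 8 were lower (median -0.02). For 4 weeks against untreated the medians were 0.11, 0.04, 0.15 and -0.08 in the same order. Against untreated, the carriers and the regulators thus had medians near 0 on opposite sides.

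Some cell type markers lay on the same side as the members and others on the opposite side, and in each marker list and comparison 0 genes passed the criteria. In bulk tissue fewer cells of a type and less RNA per cell cannot be told apart. Neurons were followed by 10 marker genes, all well above background on all 16 arrays. Whether the RNA of these markers came from the corpus callosum or from tissue beside it was not tested. All 10 were higher at 4 than at 2 weeks (median 0.42), 8 of 10 were higher at 4 weeks than untreated (median 0.18), all 10 were lower on regular diet than at 4 weeks (median -0.56) and all 10 were lower on regular diet than untreated (median -0.41). These 4 directions are those of the members, but at 2 weeks against untreated 9 of 10 neuronal markers were lower (median -0.32), where the members had a median of -0.01. By array, the medians of the neuronal markers ran from -0.34 to 0.57 at 4 weeks and from -1.05 to 0.06 on regular diet, and of the 4-week arrays, array 2 was the highest both in the members (0.63) and in neuronal markers (0.57), while array 3, at 0.34 in the members, was the lowest in neuronal markers at -0.34. Summed linear levels of the 10 markers ran from 180 to 265 untreated, 101 to 310 at 2 weeks, 171 to 340 at 4 weeks and 104 to 237 on regular diet, and their part in the result was not tested. The 9 myelin markers went the other way, higher on regular diet than at 4 weeks in 9 of 9 (median 1.07), and the 8 microglial markers were also higher in 8 of 8 (median 0.81), as were 6 of 6 markers of oligodendrocyte precursors (median 0.67). Of 7 astrocyte markers, 3 were higher and 4 lower (median -0.14). Other markers were lower with the members in that comparison: choroid plexus in 7 of 7 (median -0.58), endothelium in 4 of 4 (median -0.44) and red blood cells in 3 of 3 (median -0.36). Choroid plexus markers were also higher in 7 of 7 at 4 weeks against untreated (median 0.86), and the part of these cell types was not tested.

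Each of 4 slides carried 4 of the arrays, all were scanned on 1 day, and every slide held several groups. Within slides, the member median on regular diet minus that at 4 weeks was -0.62 on slide 2, -0.08 on slide 3 and -0.41 on slide 4, so its sign was the same on all 3 slides that held both groups. Regular diet minus untreated was -0.43, 0.03 and -0.13 on slides 1, 2 and 3, and 4 weeks minus untreated was 0.65 on slide 2 and -0.06 on slide 3. The single slides that could give 2 weeks minus untreated and 4 weeks minus 2 weeks gave -0.43 and 0.26. Each of these values rests on 1 or 2 arrays a group, and those for 4 weeks against untreated and regular diet against untreated changed sign between slides.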

How the data were processed

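Total RNA with an RNA integrity number above 8.0 was hybridised, in Cy3, to Agilent whole mouse genome arrays. The authors extracted spot intensities with Feature Extraction (11.0.1.1 in the submitters' processing notes), scaled each array to its 75th percentile and set each probe to the median of the untreated arrays. The deposited log2 values of this table were used as they are: 99.9% of its 41153 probes have an untreated median of 0 (tolerance 1e-06). Deposited scanner intensities gave detection, slide and alternatives. As their recorded samples conflict with the table, each column was matched to the scanner file it correlated with best (next best at most 0.883, over 21983 probes).

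Symbols came from RefSeq through probe accessions (66.7% of probes). Probes that a whole group, or more, showed well above background were tested with limma (3.58.1, R 4.3.3) and Benjamini-Hochberg adjustment. The CPZ comparisons used 10 arrays and 3 groups (27502 probes), and the regular-diet comparisons 16 arrays and 4 groups (27782 probes). The regular-diet arrays, with their mixed times, were kept out of the former. The steps were tested on simulated data. The number of arrays limits the precision. The 75th percentile of the processed intensity was 159 to 358.

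Members and lists were chosen with earlier results of these data known. Genes were named by a fixed rule: central subunits, isoform pairs, and up to 5 members in each direction with the largest difference without overlap. Ndufaf1, Ndufb9, Ndufa10 and the full sets without overlap were named after their values were seen. A result for 1 gene of the rule is not reported here. Alternatives were other scalings, filters, blocks, weights, tests and samples, and each array left out. Normexp correction (offset 50) used the median spot signal, since no mean signal was in the files. Under the methods' test, analysis of variance was followed by Tukey's test.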

Additional observations from a re-analysis of the deposited data

Results flagged for a closer look

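In 1 of 104 groups of arrays examined for the named members, a single array lay far from the others. For Uqcr11 at 4 weeks of CPZ, array 2 was at 0.862, and the nearest of the other 3 arrays was at 0.469. This gap made up 0.919 of the range of the group, where 0.829 is the limit for 4 arrays. Chance flags about 1 in 20 groups. The same array had the highest median of all 88 members, 0.63.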

How the results depend on the processing

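No member passed the criteria (adjusted p under 0.05 and at least 2-fold) under any alternative that was run, in all 5 comparisons. The median log2 fold change of members moved by more than the spread between arrays as follows: for 2 weeks against untreated, -0.28 with slide as a fixed block; for the sample recorded for each scanner file, -0.30 (4 weeks against untreated), -0.091 (4 against 2 weeks) and 0.20 (regular diet against 4 weeks); and for regular diet against 4 weeks, 0.028 with each array centred on the members, which removes their common shift by construction. That centring and the fit without the 3 arrays of fewest detected probes were chosen after seeing the data. Leaving out each array in turn gave medians of -0.17 to 0.21 for 2 weeks against untreated, 0.03 to 0.41 for 4 weeks against untreated, 0.09 to 0.33 for 4 against 2 weeks, -0.37 to 0.02 for regular diet against untreated and -0.51 to -0.27 for regular diet against 4 weeks. In the last, 7 members had an adjusted p under 0.05 without untreated array 1 (8% of all genes) and 1 without 4-week array 1 (8.55%), all under 2-fold. With array weights, whose estimation stopped before full convergence, 6, 15, 32, 1 and 5 members had an adjusted p under 0.05 in the order of the report, all under 2-fold, where the shares of all genes were 24.5%, 19.8%, 53.2%, 10.2% and 12.1%. Deviations of same-numbered arrays correlated at -0.81 to -0.74 for untreated and 4 weeks, and at -0.11 to 0.20 for the other pairs of groups. These correlations do not decide whether same-numbered arrays share more than the number. With the replicate block, medians were -0.01, 0.22, 0.23, -0.19 and -0.34, and unadjusted p-values under 0.05 were found for 7 members for regular diet against 4 weeks (12.5% of all genes). The arrays' number limits what could be seen: the median standard error of a member was 0.19 to 0.27.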

Other observations

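Ndufaf1, an assembly factor of complex I, was at 3.42 on 4-week array 3 and between -0.33 and 0.52 on the other 15 arrays. Its difference between regular diet and 4 weeks of CPZ, -1.08 (SE 0.52, limma adjusted p = 0.214), was the largest of the 88 members in that comparison and came with that array. The gene was singled out after its values were seen.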
